A study of Mus musculus with 1483 samples.

Results

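Sst cells and Vip cells were compared inside mice labelled eHGT_017h, whose cells carried 1 enhancer virus and were sorted by the same fluorescence. The cells were chosen by their own Sst and Vip levels: a cell was taken as an Sst cell at 300 CPM or more of Sst with Vip under 300 CPM, and as a Vip cell by the reverse; CPM is the number of a gene's reads per 1000000 reads of the cell. The choice kept 99 of the 118 eHGT_017h cells (83.9%), out of 1483 cells in the series: 69 Sst cells and 30 Vip cells, while 19 cells passed neither threshold. Mouse 1 gave 28 Sst and 11 Vip cells, mouse 2 gave 24 Sst and 4 Vip cells, and mouse 3 gave 17 Sst and 15 Vip cells. No cell passed both thresholds (0 of 118 cells, which allows a share of up to 2.54%). Such limits, here and below, treat the pooled cells as independent and leave out the spread between mice.

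The series covers 33 C57Bl/6J mice and 11 enhancers, each in a virus of the AAV type that drives the yellow fluorescent protein SYFP2. Both sets came from VISp, the primary visual cortex, and carried eHGT_017h; single fluorescent cells were sorted into tubes and their polyadenylated RNA was amplified with the SMARTer v4 chemistry. The sources used here give neither age nor sex. Only fluorescent cells were sequenced, so the shares describe what the sort delivered and not the cortex. The mouse is the replicate throughout; the 3 mice are numbered in the order of their label numbers, and values are listed for mouse 1, 2 and 3 in that order.

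Cortical inhibitory neurons that release GABA fall into families with different birthplaces. Sst cells, which make the peptide somatostatin, derive from the medial ganglionic eminence (MGE), depend on the transcription factors Lhx6 and Sox6, and mostly contact the dendrites of excitatory cells. Vip cells, which make vasoactive intestinal peptide, derive from the caudal ganglionic eminence (CGE), express Adarb2 and Prox1, and largely inhibit other interneurons, Sst cells among them.

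The peptide genes that sort the cells are both known targets of cyclic AMP signalling, and their promoters are shown because they are the regulatory sequence nearest to the readout that split the cells. Each window runs from 250 bases before the start site to 50 after it, from RefSeq on GRCm38.p6, and capitals mark the cyclic AMP response element found by letter search. The Sst window is chr16:23890795-23891094, minus strand, and the Vip window is chr10:5638968-5639267, plus strand.
Sst: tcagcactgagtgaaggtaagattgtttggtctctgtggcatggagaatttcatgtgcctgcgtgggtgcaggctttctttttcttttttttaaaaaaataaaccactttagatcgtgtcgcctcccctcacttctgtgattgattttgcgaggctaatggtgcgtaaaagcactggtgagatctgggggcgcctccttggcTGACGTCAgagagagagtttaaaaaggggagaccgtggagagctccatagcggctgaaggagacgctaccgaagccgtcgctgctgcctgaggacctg
Vip: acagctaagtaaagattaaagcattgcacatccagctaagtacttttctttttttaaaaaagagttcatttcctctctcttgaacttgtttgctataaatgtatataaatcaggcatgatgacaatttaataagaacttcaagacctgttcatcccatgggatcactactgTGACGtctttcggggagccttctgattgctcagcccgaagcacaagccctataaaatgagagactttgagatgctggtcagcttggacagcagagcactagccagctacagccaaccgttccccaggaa
The Sst window holds the full element TGACGTCA at -48 to -41 from the start site, a palindrome read the same on both strands. The Vip window holds the shorter core TGACG, which is also the first part of the full element, at -79 to -75. Among 32851 mouse promoter windows of the same length, 1.79% hold the full element and 20.8% hold the core on either strand, so a match is a description of these letters and not a bound site.

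The thresholds fell in a wide gap. Inside them, Sst had a median of 8213 CPM over the Sst cells with a lowest value of 584 CPM, and the highest value outside was 108 CPM. Vip had a median of 21580 CPM over the Vip cells with a lowest value of 1711 CPM, and the highest value outside was 32.2 CPM. Vip was at 0 in all 69 Sst cells, and Sst was above 0 in 1 Vip cell, at 44.2 CPM. These levels chose the cells and carry no test.

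**Figure D1:**
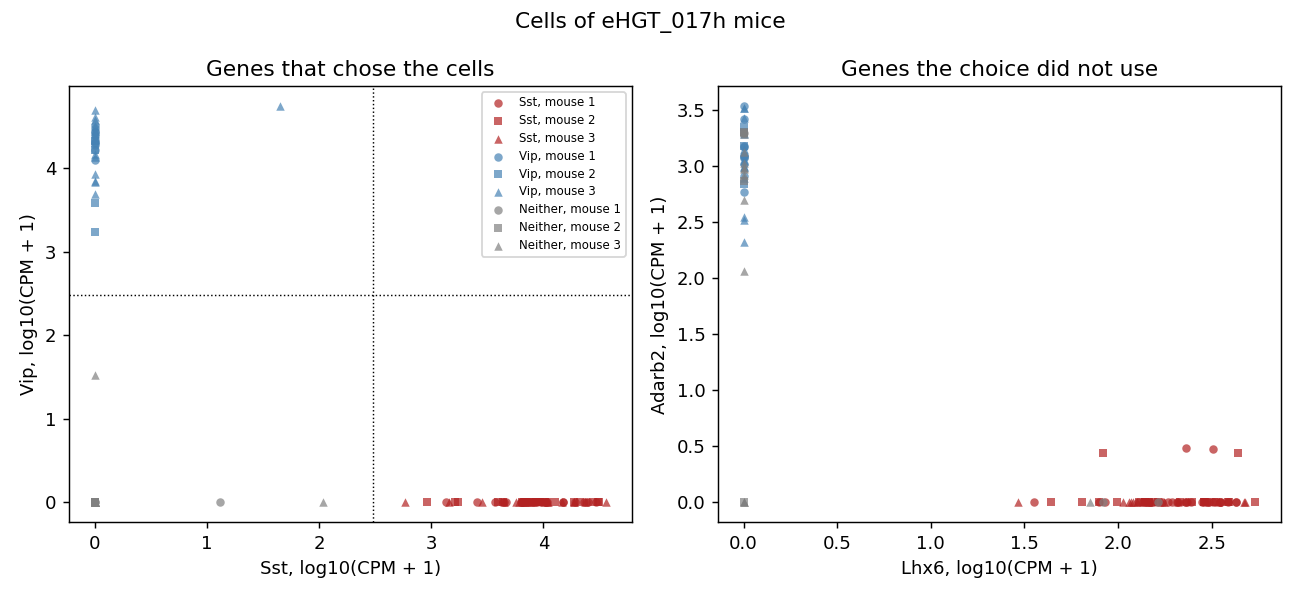
Each point is 1 of the 118 eHGT_017h cells on log10(CPM + 1) axes, with shape by mouse and colour by set; the left panel shows Sst against Vip with dotted lines at 300 CPM, and the right panel Lhx6 against Adarb2, which the choice did not use. All 69 Sst cells lie along the Lhx6 axis and all 30 Vip cells along the Adarb2 axis.

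Lhx6 and Adarb2, markers that the choice did not use, separated the cells in the same way. Lhx6 reached 10 CPM in 69 of 69 Sst cells and in 0 of 30 Vip cells (which allows a share of up to 10%), and Adarb2 in 0 of 69 Sst cells and 30 of 30 Vip cells. Of the further markers of Sst cells, Satb1 and Nxph1 reached 10 CPM in all 69 Sst cells, and Sox6 and Elfn1 in 64 each. Of the further markers of Vip cells, Prox1 did so in 29 of 30 Vip cells, Npas1 in 27, Nr2f2 in 26 and Htr3a in 22. Some of these further markers, however, were also found in the other set. Elfn1 reached 10 CPM in 25 Vip cells and Satb1 in 10, and Npas1 did so in 51 Sst cells and Nr2f2 in 19.

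Depth was alike in the sets, and the number of genes detected was not. Median reads per cell were 538691, 543512 and 619567 in Sst cells, against 492052, 564285 and 578734 in Vip cells, and single eHGT_017h cells ranged from 80222 to 798250 reads. Median genes per cell were 9559, 8923 and 9355 in Sst cells, against 7578, 7931 and 7758 in Vip cells. After each cell was thinned to 300000 reads, which left out 2 Sst cells and 2 Vip cells as too shallow, they were 9109, 8538 and 8786 in Sst cells and 7316, 7500 and 7229 in Vip cells. Sst cells had the more genes in every mouse with and without thinning, and the part of this difference in the results below was not tested.

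Across the genome, limma on log2(mean CPM + 1) per mouse and set, with the mouse as a block, tested 13553 genes with at least 1 CPM in 3 of the 6 means. It called 961 of them (7.09%) at a Benjamini-Hochberg adjusted p under 0.05 and a log2 difference of at least 1: 456 (3.36%) were higher in Sst cells and 505 (3.73%) higher in Vip cells. The median log2 difference over all genes tested was 0.09. The counts lean on the number of mice: 598 genes were called without mouse 1, 807 without 2 and 464 without 3. The p-values and standard errors are moderated: limma draws the spread of each gene between the 3 mice toward that of genes of like level. They are therefore not the spread of a gene's own 3 mice alone. Vip cells of mouse 2 are a mean of only 4 cells.

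The 12 genes with the largest difference in each direction, among those with a mean of at least 20 CPM in the higher set, were taken as the leading genes, and 23 of these 24 are described. All 24 had no overlap between the 3 Sst means and the 3 Vip means, as did 28.1% of all genes tested. The choice by large differences with the same sign in all 3 mice favours this, so it gives no separate support. All 24 kept their call when each mouse was left out and under each other setting tried. The counts of list genes that follow stand beside these shares of all genes tested, 3.36% higher in Sst cells and 3.73% higher in Vip cells.

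**Figure D2:**
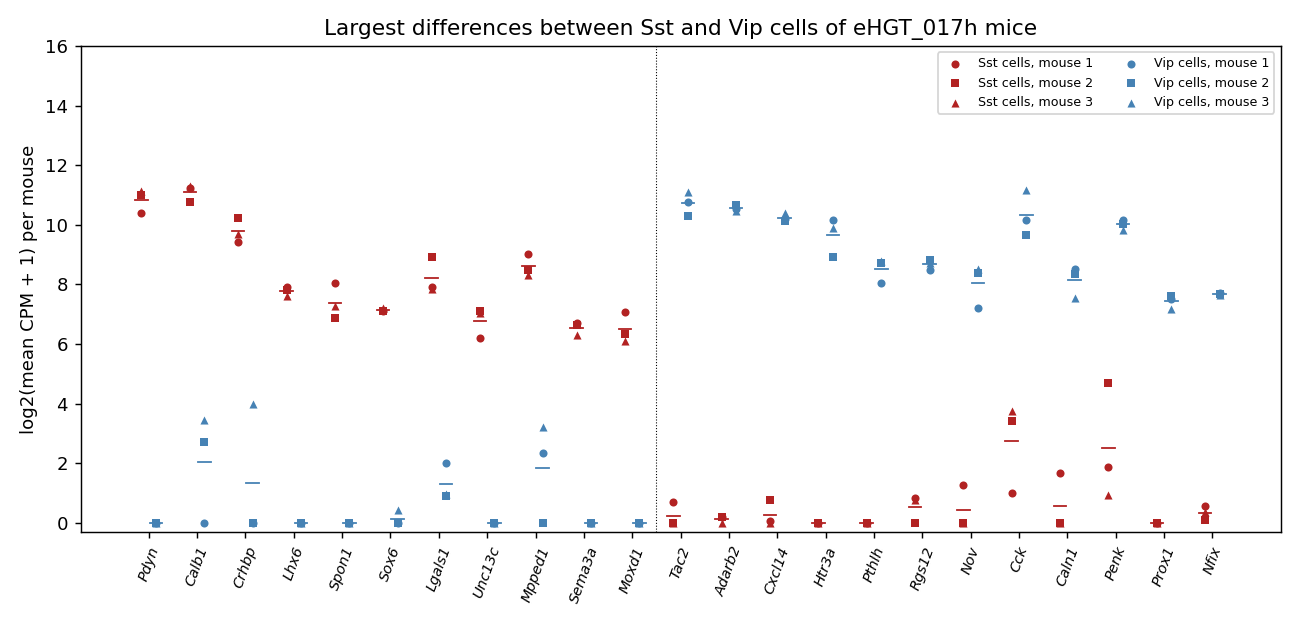
Points are log2(mean CPM + 1) of each mouse in Sst cells (red, left) and Vip cells (blue, right), and short lines are means of the 3 mice. The plot shows 23 leading genes. The 11 left of the dotted line are higher in Sst cells and the 12 right of it higher in Vip cells. The lowest point of the higher set lies above the highest point of the other set for every gene, which the choice of the genes favours.

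The regulators of the MGE lineage were led by Lhx6 and Sox6. Lhx6, a LIM homeobox factor needed for MGE interneurons to mature, averaged 240, 225 and 195 CPM in Sst cells and was listed at 0 in the Vip cells of all 3 mice. Its log2 difference was 7.78 ± 0.53 (SE, n = 3 mice, adjusted p = 7.6e-05 by limma). Where a set is listed at 0, this difference depends on the pseudocount of 1 CPM and bounds no fold. Sox6, an SRY-box factor downstream of Lhx6, averaged 139, 138 and 148 CPM in Sst cells against 0, 0 and 0.36 CPM in Vip cells, so the groups stood far apart (7.0 ± 0.56, adjusted p = 0.000184 by limma).

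Of the 10 listed MGE regulators, 8 were tested and 5 were higher in Sst cells. Besides Lhx6 and Sox6 these included Satb1, a chromatin organiser (5.53 ± 0.42 on the log2 scale, SE), and Tox (4.18 ± 0.80). Tox lost the call with a pseudocount of 0.1 CPM (adjusted p = 0.0841 by limma). Zeb2, a repressor that directs MGE cells to the cortex, went the other way: it averaged 146, 128 and 146 CPM in Sst cells against 277, 352 and 304 CPM in Vip cells (log2 difference -1.14 ± 0.18). Without mouse 2 that difference was -0.98 and no longer reached 1. Maf averaged 83.0, 91.0 and 77.7 CPM in Sst cells and 31.5, 31.8 and 48.97 CPM in Vip cells, a log2 difference of 1.17 that missed the threshold (adjusted p = 0.0541 by limma). It passed with no mouse block (0.028), a filter of 10 CPM (0.042), cell thresholds of 1000 CPM (0.0462) and only the cells of each mouse that share its most common library prefix, the first part of a library name (0.0362; all adjusted p by limma). Nkx2-1 and Lhx8, which pattern the embryonic MGE, were listed at 0 in both sets.

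All 9 listed CGE regulators were tested and 6 were higher in Vip cells, with none higher in Sst cells. Adarb2, a brain protein related to RNA-editing deaminases, averaged 0.14, 0.15 and 0 CPM in Sst cells against 1480, 1609 and 1427 CPM in Vip cells, where 1 read is about 1.76 CPM in a cell (-10.42 ± 0.33 on the log2 scale, adjusted p = 8.0e-07 by limma). Prox1, a homeobox factor of CGE interneurons, was listed at 0 in the Sst cells of all 3 mice and averaged 182, 196 and 145 CPM in Vip cells (-7.44 ± 0.56). These regulators were near all-or-none. Others were shared at different levels: Npas1, a repressor of the bHLH-PAS family, averaged 116, 98.5 and 99.0 CPM in Sst cells against 251, 342 and 293 CPM in Vip cells (-1.48 ± 0.20, adjusted p = 0.00313 by limma). Nr2f2, the receptor COUP-TFII, averaged 37.5, 9.32 and 33.6 CPM in Sst cells and 131, 59.9 and 113 CPM in Vip cells (-2.02 ± 0.33, adjusted p = 0.00755 by limma, and 0.0528 with no mouse block). The lowest Vip mean of Nr2f2 still lay above the highest Sst mean. Sp8 and Npas3 also were called, and both missed the criteria without mouse 3; Npas3 missed them too with the mean of log2 values over cells and with the most common library prefix of each mouse alone.

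Pdyn headed the genes higher in Sst cells. This gene for prodynorphin, the precursor of dynorphin opioid peptides, averaged 1337, 2040 and 2242 CPM in Sst cells and was listed at 0 in all Vip cell means (log2 difference 10.84 ± 0.34, adjusted p = 8.0e-07 by limma). It reached 10 CPM in 53 of 69 Sst cells and 0 of 30 Vip cells. Crhbp, which codes for the binding protein of corticotropin-releasing hormone, averaged 685, 1205 and 826 CPM in Sst cells against 0, 0 and 15.1 CPM in Vip cells (8.45 ± 0.74). The Vip value of mouse 3 came from 1 of its 15 cells. Calb1, the calcium buffer calbindin, averaged 2386, 1743 and 2522 CPM in Sst cells against 0, 5.65 and 9.98 CPM in Vip cells (9.03 ± 0.57).

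The other genes in this leading group span secretion, guidance and vesicle release. Spon1 (F-spondin, an extracellular matrix protein) and Sema3a (a secreted axon repellent) were listed at 0 in every Vip cell mean and averaged 116 to 263 CPM and 77.3 to 104 CPM in Sst cells. Unc13c, which codes for a vesicle priming protein, averaged 72.6, 137 and 131 CPM in Sst cells and was at 0 in Vip cells. Lgals1 (galectin 1), Mpped1 (a metallophosphoesterase) and Moxd1 (a monooxygenase-like protein) had log2 differences of 6.93, 6.76 and 6.51. These 6 genes had adjusted p-values between 0.000121 and 0.000494 by limma.

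Peptides also led the genes higher in Vip cells. Tac2, the precursor of neurokinin B, averaged 0.64, 0 and 0 CPM in Sst cells against 1733, 1246 and 2220 CPM in Vip cells (-10.48 ± 0.35, adjusted p = 1.3e-06 by limma). Penk, the precursor of enkephalins, averaged 2.71, 24.9 and 0.92 CPM in Sst cells against 1144, 1054 and 915 CPM in Vip cells (-7.51 ± 0.58). Opioid precursors were thus split between the sets, with Pdyn on the Sst side and Penk on the Vip side. Cck, cholecystokinin, averaged 1.02, 9.76 and 12.7 CPM in Sst cells against 1133, 814 and 2308 CPM in Vip cells (-7.59 ± 0.46). Pthlh, a parathyroid hormone-like peptide, was listed at 0 in Sst cells and averaged 264, 420 and 445 CPM in Vip cells (-8.52 ± 0.49).

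Cxcl14, a chemokine, averaged 0.06, 0.71 and 0 CPM in Sst cells and 1169, 1111 and 1350 CPM in Vip cells (-9.95 ± 0.37, adjusted p = 2.1e-06 by limma). Htr3a, a subunit of the ionotropic serotonin receptor and the classical marker of CGE interneurons, was listed at 0 in Sst cells and averaged 1157, 484 and 942 CPM in Vip cells (-9.66 ± 0.43). The lowest Vip mean of Htr3a, in mouse 2, was still far above 0. Rgs12 (a regulator of G protein signalling), Nov (a secreted matricellular protein), Caln1 (a calmodulin-like protein) and Nfix (a nuclear factor I) completed the group, with log2 differences from -8.14 to -7.33 and adjusted p-values between 2.5e-05 and 0.000205 by limma.

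A list of 16 genes held neuropeptides other than Sst and Vip, and also Crhbp, whose product binds a peptide. Over this whole list 12 were tested, 3 were higher in Sst cells (Crhbp, Pdyn and Cartpt) and 6 higher in Vip cells. Crh, corticotropin-releasing hormone, averaged 83.6, 146 and 118 CPM in Sst cells against 789, 3739 and 2027 CPM in Vip cells (-4.0 ± 0.24, adjusted p = 4.0e-05 by limma), so that the hormone was higher in Vip cells and its binding protein Crhbp in Sst cells. Npy, neuropeptide Y, reached 10 CPM in 52 of 69 Sst cells and 11 of 30 Vip cells; it averaged 2764, 3635 and 2571 CPM in Sst cells and 1962, 1122 and 1741 CPM in Vip cells. Its log2 difference was 0.92, under 1 (adjusted p = 0.0271 by limma), though the groups did not overlap. Without mouse 1 it was 1.13, without mouse 3 it was 1.09 and with the mean of log2 values over cells it was 4.70 (adjusted p = 0.00222 by limma), and all of these passed. Cartpt among the Sst calls and Pnoc among the Vip calls each missed the criteria without 1 mouse (3 for Cartpt, 1 for Pnoc).

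**Figure D3:**
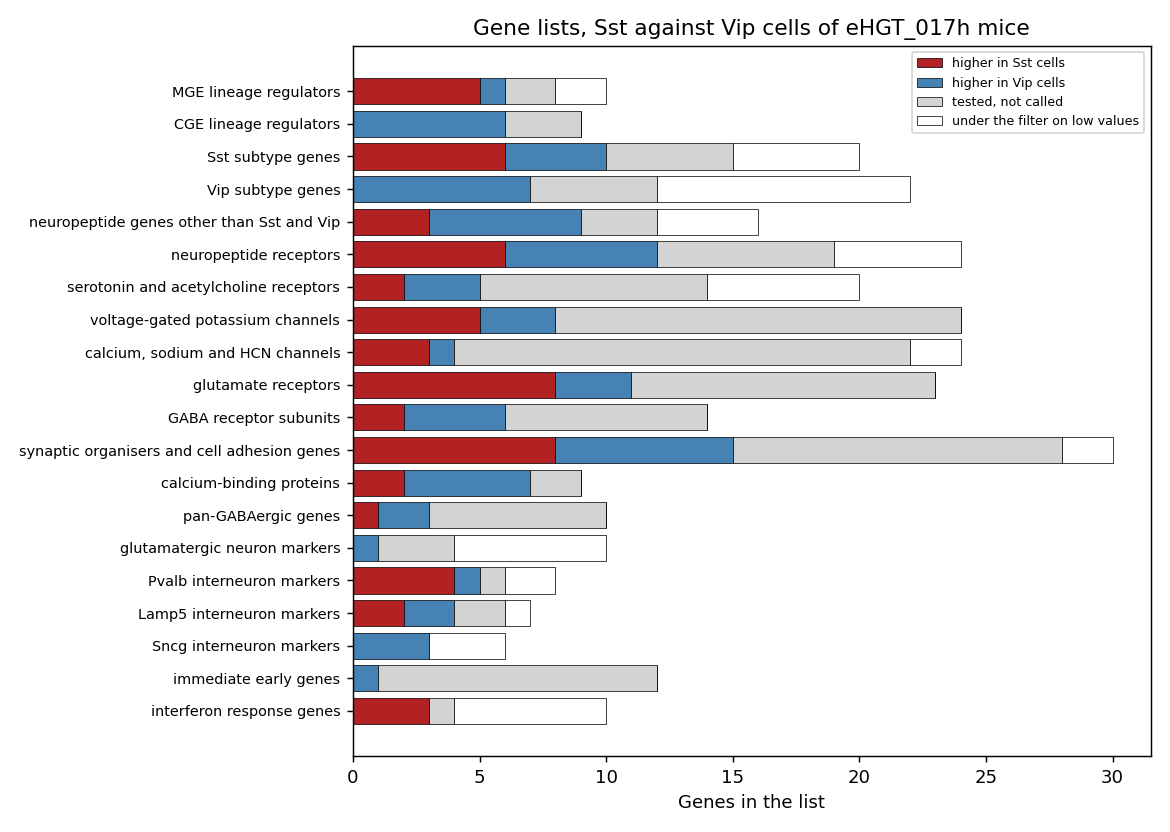
Bars give, for each gene list with at least 3 tested members, the number of genes higher in Sst cells (red), higher in Vip cells (blue), tested but not called (grey) and under the filter on low values (white). The CGE and Vip subtype lists have no red part; the glutamate receptor list has 8 genes higher in Sst cells and 3 higher in Vip cells.

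Receptors for peptides divided evenly, with 6 of 19 tested higher in Sst cells and 6 higher in Vip cells. Npy1r, a receptor of neuropeptide Y, averaged 2.81, 5.18 and 3.43 CPM in Sst cells against 210, 238 and 255 CPM in Vip cells (-5.64 ± 0.38, adjusted p = 7.3e-05 by limma). Npy2r (-5.04 ± 0.66) and Grpr, the receptor of gastrin-releasing peptide (-6.34 ± 0.50), were higher in Vip cells too. The opioid receptor genes Oprd1 (delta, 4.14 ± 0.65) and Oprk1 (kappa, the dynorphin receptor, 4.35 ± 0.66) were higher in Sst cells and listed at 0 in the Vip cells of all 3 mice, with Sst means of 12.3 to 21.3 CPM for Oprd1 and 15.4 to 25.4 CPM for Oprk1. Cckbr, the brain receptor of cholecystokinin, had the same form (16.9, 23.7 and 9.36 CPM in Sst cells, 0 in Vip cells). For Cck and Cckbr the peptide was therefore higher in Vip cells and the receptor in Sst cells, whereas Pdyn and Oprk1 were both higher in Sst cells. Prokr2, a prokineticin receptor, also was higher in Sst cells (4.25 ± 0.69). These 7 genes kept their calls without each mouse, while Oprl1, Oxtr, Vipr1, Npy5r and Crhr1 lost theirs without at least 1 mouse.

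Of 14 tested serotonin and acetylcholine receptor genes, 2 were higher in Sst cells and 3 higher in Vip cells. Htr1a, an inhibitory serotonin receptor, averaged 51.3, 45.7 and 50.3 CPM in Sst cells against 1.01, 0 and 0 CPM in Vip cells (5.31 ± 0.66, adjusted p = 0.00168 by limma). Htr2c, a Gq-coupled serotonin receptor, averaged 4.16, 1.40 and 0 CPM in Sst cells against 38.5, 49.3 and 72.3 CPM in Vip cells (-4.51 ± 0.74). Chrna5, a nicotinic subunit, was listed at 0 in Sst cells and averaged 70.6, 64.2 and 75.1 CPM in Vip cells (-6.15 ± 0.63). Htr3a and Chrna5 were the ionotropic receptor genes among the 5 called, and both were higher in Vip cells; Chrm2 on the Sst side lost its call without mouse 1 or mouse 2. Cnr1, the cannabinoid receptor, was expressed in both sets and higher in Vip cells (145, 138 and 225 CPM in Sst cells, 1339, 1531 and 2230 CPM in Vip cells, -3.32 ± 0.13, adjusted p = 2.2e-06 by limma).

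Among voltage-gated potassium channels all 24 listed genes were tested, 5 were higher in Sst cells and 3 higher in Vip cells. Kcna1 and Kcna2, which form axonal Kv1 channels, were higher in Sst cells by 1.90 ± 0.29 and 1.49 ± 0.25 on the log2 scale, and Kcns3, a modifier subunit, by 3.95 ± 0.65. Kcnq5, an M-current subunit, averaged 23.6, 40.9 and 25.5 CPM in Sst cells against 321, 295 and 329 CPM in Vip cells (-3.39 ± 0.26, adjusted p = 0.000176 by limma). Kcnt2, a sodium-activated channel, was higher in Vip cells as well (-4.22 ± 0.47). The further calls were Kcna6 and Kcnab1 in Sst cells and Kcnb2 in Vip cells, and each was lost without mouse 3. The Kv3 gene Kcnc2 averaged 312, 359 and 421 CPM in Sst cells and 198, 213 and 188 CPM in Vip cells, a log2 difference of 0.86, under 1. It passed with the mean of log2 values over cells (1.45) and with the most common library prefix of each mouse alone (1.01). Of 22 calcium, sodium and HCN channel genes tested, 4 were called, and Cacna2d1, an auxiliary calcium channel subunit, was the 1 that held without each mouse: it averaged 0, 0.07 and 0 CPM in Sst cells and 35.9, 46.2 and 58.8 CPM in Vip cells. Cacna1e and Cacna2d2, called higher in Sst cells, each lost the call without mouse 1.

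Glutamate receptors had 8 of 23 genes higher in Sst cells and 3 higher in Vip cells. Grin3a, an NMDA receptor subunit, averaged 572, 426 and 379 CPM in Sst cells against 31.98, 43.4 and 43.5 CPM in Vip cells (3.49 ± 0.25, adjusted p = 0.000112 by limma). Kainate receptor genes split by subunit: Grik3 was higher in Sst cells (108, 94.3 and 53.9 CPM, against 0.36, 1.46 and 2.49 CPM in Vip cells), and Grik2 in Vip cells (191, 239 and 269 CPM in Sst cells, 692, 1007 and 635.5 CPM in Vip cells). The Grik2 difference of -1.72 was -0.98, under the size threshold, with the mean of log2 values over cells. In mice of other enhancers it was 0.08, and the difference between these contrasts had an unadjusted p of 0.00172 and an adjusted p of 0.632 by limma. The metabotropic receptor gene Grm8 was higher in Vip cells (-4.82 ± 0.46). Gria3, an AMPA receptor subunit, was higher in Sst cells (1.52 ± 0.21). The calls of Gria1, Grik1, Grin2a and Grm3 in Sst cells did not hold without each mouse. Of 14 GABA receptor subunit genes, 2 were higher in Sst cells and 4 higher in Vip cells, and none of these 6 held without each mouse.

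Genes for synaptic organisers and adhesion had 8 of 28 tested members higher in Sst cells and 7 higher in Vip cells. Of these calls, 5 on the Sst side and 6 on the Vip side held without each mouse. Nxph1, a secreted ligand of neurexins, averaged 854, 915 and 815 CPM in Sst cells against 8.93, 12.6 and 10.3 CPM in Vip cells (6.22 ± 0.23, adjusted p = 1.7e-06 by limma). Among cerebellins, which bridge neurexins to the postsynaptic side, Cbln4 was higher in Sst cells (293, 130 and 183 CPM, against 7.62, 26.4 and 7.42 CPM in Vip cells) and Cbln2 in Vip cells (0, 0.16 and 0 CPM in Sst cells, 222, 67.1 and 201 CPM in Vip cells). Cadherins divided in the same manner, with Cdh13 higher in Sst cells (4.40 ± 0.22) and Cdh12 higher in Vip cells (-2.14 ± 0.21). Erbb4, the neuregulin receptor of interneurons, averaged 58.5, 108 and 176 CPM in Sst cells against 1080, 1534 and 1127 CPM in Vip cells (-3.56 ± 0.26, adjusted p = 0.000132 by limma). Elfn1, which shapes the synapses that excitatory cells make on Sst cells, was called higher in Sst cells, but not without mouse 1 or without mouse 3.

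The machinery of GABA release was common to both sets. Of 10 pan-GABAergic genes, 1 was higher in Sst cells, a call lost without mouse 3, and 2 higher in Vip cells (Dlx1 and Dlx6os1). Gad1, which codes for a GABA-synthesising enzyme, averaged 1479, 1434 and 1765 CPM in Sst cells and 2457, 3177 and 2961 CPM in Vip cells, a log2 difference of -0.87 ± 0.10 that passed the p threshold (adjusted p = 0.00146 by limma) and not the size threshold. Gad2 (-0.23 ± 0.18) and the vesicular transporter Slc32a1 (0.20 ± 0.30) had means that overlapped between the sets. Dlx1, a homeobox factor of inhibitory neurons, averaged 84.7, 67.4 and 72.5 CPM in Sst cells and 220, 173 and 182 CPM in Vip cells (-1.34 ± 0.21). The non-coding Dlx6os1 was higher in Vip cells by a larger margin (82.9, 62.8 and 128 CPM in Sst cells, 456, 794 and 756 CPM in Vip cells, -2.88 ± 0.24); it overlaps Dlx6 on the other strand, and whether the counting used strand is not given in the sources used here, so reads of the pair may not be separable.

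Calcium-binding proteins had 2 of 9 genes higher in Sst cells and 5 higher in Vip cells. Of these calls, 1 on the Sst side and 4 on the Vip side held without each mouse. Calb1 is described above. Necab1, a neuronal calcium-binding protein, averaged 21.2, 7.39 and 27.7 CPM in Sst cells against 149, 365 and 459 CPM in Vip cells (-4.07 ± 0.45, adjusted p = 0.000971 by limma). Calb2, calretinin, often used to mark Vip cells, did not pass: it averaged 192, 35.5 and 245 CPM in Sst cells and 687, 11.8 and 575 CPM in Vip cells (-0.52 ± 0.53, adjusted p = 0.658 by limma). Vip cells were higher in mice 1 and 3 and lower in mouse 2, whose 4 Vip cells include 1 with Calb2. Without mouse 2 the difference was -1.53 with an adjusted p of 0.00281 by limma, and without mouse 1 it was 0.14. With limma voom on recovered reads it was -1.49 and passed (adjusted p = 0.00441).

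Markers of other cell kinds were low, with exceptions on both sides. Lamp5 was listed at 0 in all Vip cell means and in 2 of the 3 Sst means, and Slc17a7, the vesicular glutamate transporter of excitatory cells, stayed under 8 CPM in both sets. Of the 10 glutamatergic markers 4 were tested, and the list summed to 85.6, 93.0 and 52.8 CPM in Sst cells and 137, 156 and 72.4 CPM in Vip cells, with Camk2a as the 1 call (higher in Vip cells, lost without each mouse in turn). Microglial and endothelial lists had no member past the filter, and their sums stayed under 11 CPM in each mouse and set. The 6 astrocyte markers summed to 14.3, 97.4 and 29.4 CPM in Sst cells and 339, 139 and 220 CPM in Vip cells. Most of this was Aldoc (12.6, 94.6 and 21.3 CPM in Sst cells, 326, 139 and 217 CPM in Vip cells, adjusted p = 0.0264 by limma, and 0.0798 without mouse 1 and 0.0780 without mouse 3), while Gfap, Aldh1l1 and Gja1 were at 0 in Vip cells. Oligodendrocyte lineage markers summed to 42.7, 48.1 and 34.6 CPM in Sst cells and 46.9, 36.03 and 11.54 CPM in Vip cells, with Pdgfra as the 1 call (higher in Vip cells and at 0 in Sst cells), lost without mouse 1 or mouse 2. The part of these cells in the results was not tested.

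Markers of neighbouring interneuron families appeared in both sets. The 3 tested genes of the Sncg family (Sncg, Cnr1 and Cck) were all higher in Vip cells, and that list summed to 147, 149 and 238 CPM in Sst cells against 2541, 2460 and 4609 CPM in Vip cells. Of 6 tested Lamp5 family genes 2 were higher in Sst cells (Ndnf and Reln) and 2 higher in Vip cells (Cplx3 and Id2), while the defining gene Lamp5 was near or at 0 in both; Ndnf lost its call without mouse 1 or mouse 3 and Cplx3 without mouse 3. Of 6 tested Pvalb family genes 4 were higher in Sst cells and 1, Pthlh, in Vip cells; the Sst calls were Kcns3, Akr1c18, Tmem132c (lost without mouse 1 or mouse 3) and Pvalb. Pvalb, the marker of the other large MGE family, was higher in Sst cells (64.3, 17.8 and 15.03 CPM, against 2.34, 0.43 and 0.85 CPM in Vip cells, 3.70 ± 0.67), a call that was lost without mouse 1 (adjusted p = 0.0762 by limma).

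Some interferon-induced genes, all of the Ifit family, differed between cells that carried the same virus. Of 10 listed genes 4 were tested and 3 were higher in Sst cells. Ifit2 averaged 124, 169 and 162 CPM in Sst cells against 5.04, 5.22 and 7.83 CPM in Vip cells (4.45 ± 0.38, adjusted p = 0.000256 by limma), and reached 10 CPM in 63 of 69 Sst cells and 5 of 30 Vip cells. Ifit3 (93.7, 101.3 and 59.5 CPM in Sst cells, 0, 0 and 2.59 CPM in Vip cells) and Ifit1 (30.05, 47.2 and 32.5 CPM in Sst cells, 0 in Vip cells) had the same form. The Ifit genes code for inducible antiviral proteins that bind foreign RNA. They resemble each other, so the authors' counting may have shared reads between them. The whole list summed to 259, 330 and 271 CPM in Sst cells and 22.6, 27.8 and 30.7 CPM in Vip cells, with Irf7 and Ifitm3 at 0 in Sst cells and Isg15, Usp18, Bst2 and Ifitm3 at 0 in Vip cells beside Ifit1.

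Immediate early genes, which report recent activity or handling, gave 1 call among 12 tested, a share near the 7.09% of all genes tested. Nr4a1 averaged 3.09, 8.09 and 3.53 CPM in Sst cells and 24.9, 41.5 and 86.7 CPM in Vip cells (-3.05 ± 0.59, adjusted p = 0.0153 by limma), which was lost without mouse 3 (0.14). Fos averaged 13.6, 34.9 and 67.2 CPM in Sst cells and 10.1, 370.5 and 749 CPM in Vip cells and was not called (adjusted p = 0.0923 by limma). Mouse 1 was low in both sets, and without it Fos passed at -3.42 with an adjusted p of 5.9e-05 by limma. It also passed with limma voom on recovered reads (-3.28, adjusted p = 0.000595).

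Genes that mark kinds of Sst cell in the cortex were detected in parts of the Sst set. Of 20 such genes 15 were tested between the sets, and 6 were higher in Sst cells and 4 higher in Vip cells, with Rxfp1 among the Vip calls lost without mouse 1 or mouse 3. At 10 CPM, Calb1 was found in 59 of the 69 cells, Crhbp in 57, Pdyn in 53 and Npy in 52. Cbln4 was found in 36 and Moxd1 in 35, and Hpse, a heparanase known from Sst cells of layer 4, in 22. Calb2 was found in 17 Sst cells, all of which also had Cbln4, Npy, Calb1 and Crhbp. Of the 22 Hpse cells, 4 had Calb2. Crh was found in 16 Sst cells and Ndnf in 10, and 9 of the 10 Ndnf cells had Crh while 1 had Pdyn. Nr2f2 was found in 19 Sst cells, 1 of them with Calb2 and all 5 cells with Myh8 among them. Chodl, the marker of the long-range Sst type, was found in none (0 of 69 cells, which allows a share of up to 4.35%). The pairs are counts in cells of 3 mice, chosen after their values were seen, and carry no test.

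Shares of Sst cells by mouse lay closer for some genes than for others. Pdyn was found in 75.0%, 75.0% and 82.4% of the Sst cells of the mice, Crhbp in 85.7%, 83.3% and 76.5%, and Pvalb in 39.3%, 37.5% and 41.2%. Hpse was found in 35.7%, 37.5% and 17.6%, and Calb2 in 32.1%, 12.5% and 29.4%. With 17 to 28 cells a mouse, 1 cell moves a share by several points.

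**Figure D4:**
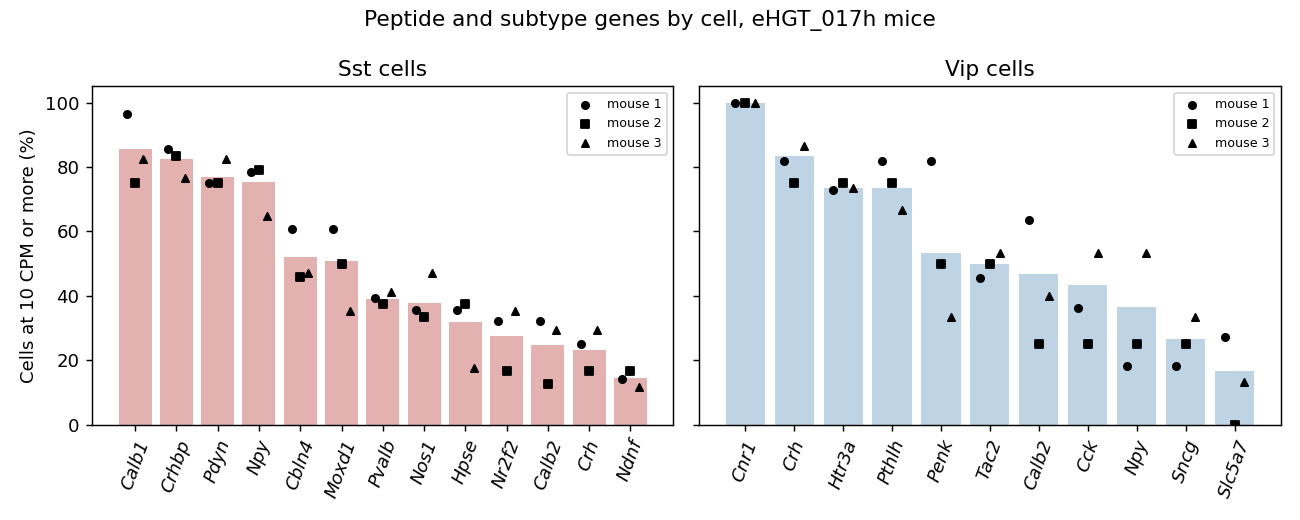
Bars give the percentage of all Sst cells (69, left) and all Vip cells (30, right) of the 3 eHGT_017h mice that reached 10 CPM of each gene, and points give each mouse. Calb1, Crhbp, Pdyn and Npy were each found in over 75% of Sst cells, and Cnr1 in all Vip cells; the 4 Vip cells of mouse 2 make its points coarse.

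Of 22 genes that mark kinds of Vip cell 12 were tested, 7 were higher in Vip cells and none in Sst cells, and the 7 held without each mouse. Sncg was among the 7, but it was at 0 in both sets of the 4 mice of other enhancers described below. By cell, Cnr1 was found in all 30 and Crh in 25, and Htr3a and Pthlh in 22 each. Penk was found in 16, Tac2 in 15, Calb2 in 14 and Cck in 13. Calb2 and Cck met in 2 cells, although 25 cells had 1 of them or both. All 14 Calb2 cells and all 16 Penk cells had Pthlh, and Calb2 and Penk met in 12 cells. Sncg, gamma-synuclein, was found in 8 cells, 7 of which had Cck, 7 Tac2 and 7 Npy, while none had Calb2, Penk or Pthlh. Crh was common among Calb2 and Cck cells alike (12 of 14 Calb2 cells and 12 of 13 Cck cells). The choline transporter gene Slc5a7 was found in 5 cells, all with Calb2 and none with Cck. These, too, are counts with no test.

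Shares of Vip cells by mouse differed for Penk, Calb2, Cck and Npy, with no test. Penk was found in 81.8%, 50.0% and 33.3% of the Vip cells of the mice and Calb2 in 63.6%, 25% and 40%, while Cck was found in 36.4%, 25% and 53.3% and Npy in 18.2%, 25% and 53.3%. Mouse 1 was thus the highest for Penk and Calb2, and mouse 3 for Cck and Npy. These shares rest on 11, 4 and 15 Vip cells, so 1 cell moves a share by many points, most of all in mouse 2.

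The same contrast was available in 4 mice of other enhancers that had at least 2 cells of each set: hDLXI56i mouse 1 (11 Sst and 2 Vip cells) and mouse 2 (18 and 7), and eHGT_079h mouse 1 (13 and 3) and mouse 2 (15 and 2), numbered within each enhancer. There limma tested 12391 genes and called 688 (5.55%), 532 (4.29%) higher in Sst cells and 156 (1.26%) higher in Vip cells, with a median log2 difference of 0.58 over all genes. With at least 3 cells of each set, 2 mice and 326 calls were left. Lhx6 averaged 112, 169, 142 and 155 CPM in the Sst cells of these mice (in the order above) and was at 0 in their Vip cells. Adarb2 averaged 0, 0, 0 and 0.53 CPM in Sst cells and 1031, 2317, 2116 and 350 CPM in Vip cells. Pdyn averaged 817, 788, 1188 and 679 CPM in Sst cells and was at 0 in Vip cells.

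Of the 961 genes called in eHGT_017h mice, 817 were tested in the other mice and 755 (92.4%) had the same sign, beside 65.2% of all 12085 genes tested in both. In both sets of mice, 183 genes were called higher in Sst cells and 125 higher in Vip cells, which is 32% of the eHGT_017h calls and 44.8% of the calls in the other mice, and 1 gene was called in opposite directions. Of the 24 leading genes 23 were tested there, all 23 had the same sign and 19 were called the same way. The other 4 were Spon1, Rgs12, Nov and Cck. Htr3a did not pass the filter there; it was at 0 in both sets in hDLXI56i mouse 1.

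A direct test of the difference, the limma interaction of cell set and eHGT_017h against the other mice, called 0 of 15243 genes (0%). Of these genes 888 were at an unadjusted p under 0.05, and the smallest adjusted p was 0.0784, for Sncg. No gene was shown to differ in this contrast between the enhancers, which does not show that the contrasts are alike. The other mice had 2 to 7 Vip cells each, and the median interaction over all genes was -0.42 on the log2 scale.

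**Figure D5:**
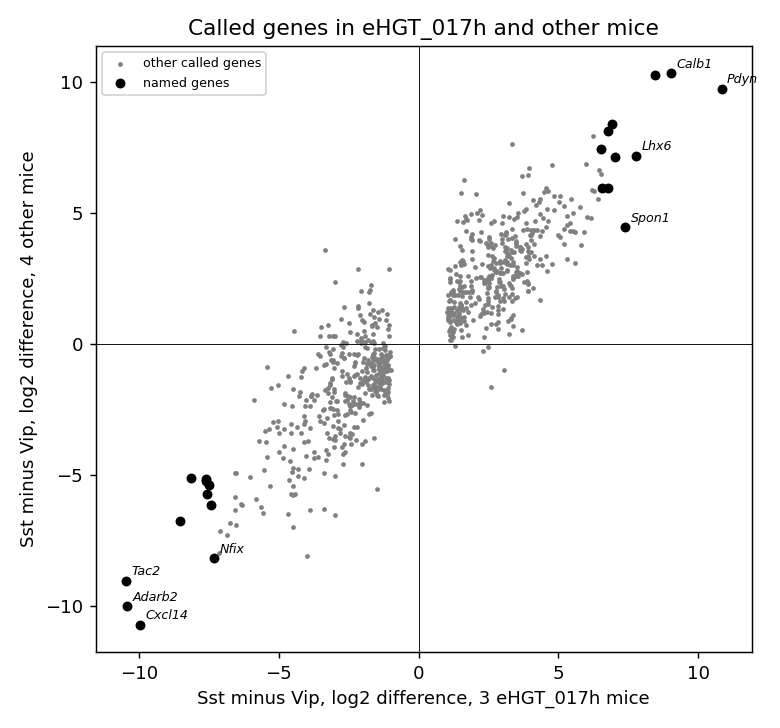
Each point is a gene called in eHGT_017h mice and tested in the other mice (817 genes), with its Sst minus Vip log2 difference in the 3 eHGT_017h mice on the x axis and in the 4 other mice on the y axis; black points are leading genes described in the text. 755 points lie in the 2 quadrants of equal sign.

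The 19 eHGT_017h cells that passed neither threshold were mostly inhibitory. Gad1 reached 10 CPM in 15 of them and Slc17a7 in 5, and 4 had Slc17a7 without Gad1 or Gad2. Adarb2 reached 10 CPM in 12 and Lhx6 in 3, while Lamp5 did in 7. Of these cells 12 came from mouse 3, 4 from mouse 2 and 3 from mouse 1.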

How the data were processed

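Single fluorescent cells of VISp were sequenced after SMARTer v4 amplification, per the labels' protocols. The authors deposited 1 table of CPM for 1483 cells and 45768 genes, in which each cell sums to 1000000. Per the submitters' processing notes the tools and builds include STAR and mm10, listed with no version or role; the counting program, annotation and cell filters were not given in the sources used here. Every value above 0 (100%) was a multiple of the cell's smallest step to within 0.01 read, which gave back the reads of each cell; reads carry no molecular identifiers, and the limits given for a count of 0 cells, which use 3 counts, cover counting error only. No doublet caller was run.

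CPM were averaged per mouse and cell set and tested with limma 3.58.1 (trend and robust; statmod 1.5.0, R 4.3.3) on log2(mean CPM + 1), with the mouse as a block because both sets came from the same animals. Genes had to reach 1 CPM in 3 of 6 means. Sst and Vip stayed in the fit and were never counted. The method was tested on simulated data with independent normal noise and no mouse effect. That noise was alike in both sets, with spreads taken from limma's moderated values. Only genes of higher mean level were changed, so the shares called do not cover genes of low mean level. Among 13555 genes run, the method called 67 of 100 genes changed by 1.5 on the log2 scale. It also called 99 of 100 genes changed by 3, and 6 unchanged genes. Errors of log2 differences are moderated standard errors from limma with n = 3 mice unless said otherwise. Genes described in full were the 12 largest differences in each direction among called genes whose mean reached 20 CPM in the higher set and whose sign was the same in all 3 mice, without clone-based symbols, pseudogenes and ribosomal or mitochondrial genes; other genes came from gene lists. The cell sets, genes and lists were chosen with earlier results of these data known. List genes given with values were picked after their values and the fits without each mouse were seen, mostly genes whose call held, so they are not a sample of their lists; the counts cover every member. Some genes of the lists and 1 leading gene are counted but not reported here by name. Alternatives changed the block, pseudocount, filter, summary over cells, thresholds, depth and libraries, and left out each mouse. Promoter windows came from RefSeq tables on GRCm38.p6. Tables and figures used Python 3.11.15, numpy 2.4.6, pandas 2.3.3 and matplotlib 3.10.9.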

Additional observations from a re-analysis of the deposited data

Results flagged for a closer look

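In the 4 mice of other enhancers, 6 of the 23 leading genes described had 1 mouse whose Sst minus Vip log2 difference lay far from the other 3 by Dixon's test, which flags about 1 in 20 groups by chance. hDLXI56i mouse 1, with 2 Vip cells, had a difference of -2.05 for Tac2 (others -12.09 to -10.90), 1.84 for Rgs12 (others -8.07 to -6.79) and 4.48 for Cck (others -8.54 to -8.40). hDLXI56i mouse 2, with 7 Vip cells, had 7.95 for Calb1 (others 10.96 to 11.18). eHGT_079h mouse 2, with 2 Vip cells, had 5.87 for Lgals1 (others 9.0 to 9.38), and eHGT_079h mouse 1, with 3 Vip cells, had -3.84 for Prox1 (others -7.03 to -6.75).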

How the results depend on the processing

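The leading 24 genes kept direction and call under all 16 alternatives. In eHGT_017h the number of genes called was 961 and ranged from 464 to 807 when each mouse was left out (198 to 358 higher in Sst cells, 261 of them without mouse 1; 266 to 449 higher in Vip cells), and was 598 without mouse 1. With no mouse block 1016 genes were called. A pseudocount of 0.1 CPM gave 302 genes higher in Sst cells. The mean of log2 values over cells gave 906 genes higher in Sst cells and 425 higher in Vip cells, so that 68.1% of calls were higher in Sst cells against 47.5% with mean CPM, the median of all genes moved to 0.31, and 3 genes called with mean CPM had the opposite sign; the cause was not tested. Alternatives added after seeing the data, limma voom on recovered reads and median-of-ratios scaling, gave 1029 and 1006 calls. When each mouse was left out, the log2 difference ranged from -0.48 to 0.033 for Gad2 (0.033 without mouse 2) and from -1.53 to 0.14 for Calb2 (0.14 without mouse 1). In the other mice 326 genes were called with at least 3 cells of each set. The interaction called 0 genes with a pseudocount of 10 CPM and with hDLXI56i mice only. The planned edgeR and DESeq2 fits were not run; limma voom was the test run on recovered reads.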
